A study of Danio rerio with 2 samples.

Results

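The heat shock factors and cytosolic chaperones of the zebrafish larval liver were examined as 10 gene symbols, hsf1, hsf2, hspa8, hsp70l, hspa4a, hsp90aa1.1, hsp90aa1.2, hsp90ab1, dnajb1b and hspb1, matched by name to the 31953 gene IDs of the deposited tables. Matching ignored case and, where a symbol ending in a or b was absent, dropped that letter. It found 11 IDs for 9 of the symbols, because the name table gives the human symbols HSPA8 and HSPA4 to a pair of IDs each. No ID carried hsp90aa1.2. One ID, ENSDARG00000024746, carries the human symbol HSP90AA1 and is described beside the members without being counted among them.

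RNA came from livers of larvae at 5 days post fertilization, pooled from 3 batches into 1 library of uninjected controls and 1 library of larvae injected with a man1a2 morpholino, a synthetic antisense molecule that stops the transcript from being translated or spliced. Neither the morpholino used for the pool (against the start codon or a splice site) nor its dose is given in the sources used here, and a transgenic background of the pooled larvae is not given either. The 2 libraries held 19658335 and 19783886 reads, and man1a2 itself had 193 reads in controls and 195 in morphants, which is no measure of a knockdown that acts on translation or splicing. With 1 library per group, no difference below could be set against the spread between replicates.

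The heat shock response is the classical program by which a cell meets unfolded protein in its cytosol. Heat shock factor 1 is held inactive by chaperones, is released when these are drawn to unfolded protein, and then drives genes for further chaperones. HSP70 proteins bind exposed hydrophobic stretches with the help of HSP40 proteins, which deliver substrates, and of HSP110 proteins, which exchange the nucleotide. HSP90 proteins finish the folding of kinases and receptors, and small heat shock proteins hold unfolded chains without using ATP. For HSP70 and HSP90 the cell keeps an abundant form that is made at all times, and a related form that is made mainly under stress. The comparison between controls and morphants was therefore made for the constitutive and the inducible forms side by side.

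Most inducible forms were higher in the morphant library, hsp70l by far the most, while the constitutive forms differed little. In the inducible class, 3 of 4 measured IDs (hsp70l, dnajb1b and HSPB1) were past the read test and all 4 had log2 ratios above 0, with a median of 0.64. Of the 3, the call of hsp70l alone held where a set variation between pools was assumed. None of the 3 calls held under a dispersion estimated from both libraries treated as 1 group. That dispersion takes in the difference between control and morphant, so it is no measure of variation between pools. In the constitutive class, 0 of 4 measured IDs were past it, with a median log2 ratio of 0.06, against 0.01 for all 15732 genes tested. The read test is an exact binomial test of a gene's reads in both libraries, called where the fold was at least 1.2 and the p adjusted by Benjamini-Hochberg over all genes was below 0.05, so it compares these libraries and not the conditions. Over all genes tested, 25.1% were past it, 12.5% higher and 12.6% lower in morphants. Scaling by total counts turned that split from 1974 higher and 1982 lower to 3144 higher and 1398 lower, and the members called to 4 higher and 1 lower. Of the 10 members with at least 10 reads, 4 were past it, 3 higher and 1 lower, and 1 of the 10, hsp70l, was higher by 2-fold or more, as were 4.88% of all genes tested. The inducible median exceeded the constitutive one by 0.58 on the log2 scale. No p-value can be given for that difference, and it lay between 0.42 and 0.73 when the classes were drawn or summed differently.

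**Figure D1:**
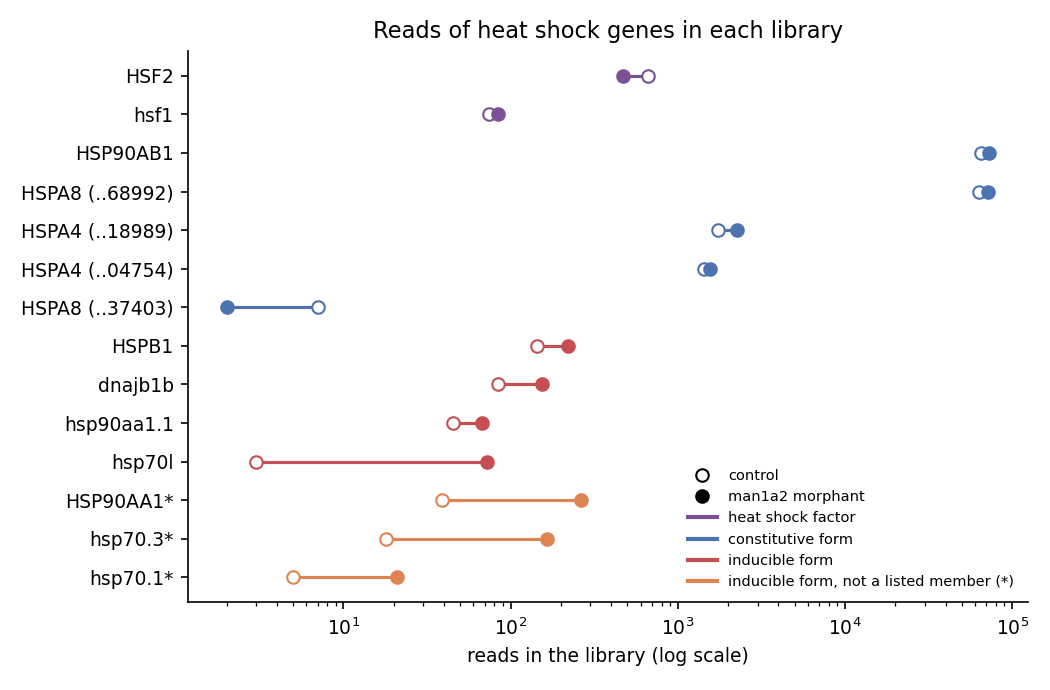
Reads of each ID in the control library (open circles) and the man1a2 morphant library (filled circles) on a log axis. Heat shock factors are purple, constitutive forms blue and inducible members red. HSP90AA1, hsp70.1 and hsp70.3, chosen from outside the member list, are orange and starred. Other heat-inducible genes, such as BAG3 and HSPH1, are not drawn. The most abundant constitutive IDs show nearly coincident circles between 63446 and 73136 reads, while hsp70l runs from 3 to 72 reads and HSP90AA1 from 39 to 265.

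Among the inducible members, hsp70l (ENSDARG00000055723) differed most. It encodes a heat-inducible HSP70 of zebrafish and had 3 reads in controls and 72 in morphants. The morphant library was thus the one with the gene clearly detected, since 3 reads is the limit that a count of 0 allows. The gene reached the 10-read minimum of the test through that library alone. Its calls, fold and rank therefore rest on the library in which it is high. The ratio was 19.3-fold with a 95% Clopper-Pearson interval of 7.32 to 111, a log2 ratio of 4.27 (interval 2.87 to 6.79). Intervals here cover counting error only. Of all genes tested, 99.6% had a lower log2 ratio. Since the read test assumes no variation between pools, edgeR's exact test was run with a coefficient of variation (CV) set to 0.1, 0.2 or 0.4, at which 6.37%, 1.4% and 0.273% of all genes tested were called. The call of hsp70l held at all 3 settings, though only just at the last (adjusted p = 0.0499), and it was the 1 member of the 10 called at any of them. Under a blind dispersion, estimated with both libraries treated as 1 group, edgeR's exact test called 0.744% of all genes and 0 members, with an adjusted p of 0.156 for hsp70l.

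The HSP40 gene dnajb1b (ENSDARG00000041394), whose human counterpart is a stress-inducible partner of HSP70, had 84 reads in controls and 155 in morphants. It rose 1.71-fold, a log2 ratio of 0.77 (interval 0.38 to 1.18), and 92.6% of the genes tested had a lower log2 ratio. The small heat shock protein gene HSPB1 (ENSDARG00000041065), which encodes the vertebrate HSP27, had 143 and 220 reads and rose 1.43-fold (interval 1.15 to 1.78). Both were higher in the morphant library by less than 2-fold. Neither was called in edgeR's exact test at a CV of 0.1, with an adjusted p of 0.0776 for dnajb1b and 0.292 for HSPB1.

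The second zebrafish ID of this HSP40 pair, dnajb1a (ENSDARG00000099383), was outside the member list and had 153 and 198 reads. Its log2 ratio of 0.26 had an interval of -0.05 to 0.58 and was not past the read test. The fold of dnajb1b exceeded that of dnajb1a 1.43 times, with an exact conditional interval of 1.002 to 2.03, so a difference between the pair was at the edge of what the counts could show.

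The hsp90aa1 genes encode the stress-responsive alpha form of cytosolic HSP90, and in zebrafish hsp90aa1.1 is known for its expression in developing muscle. It (ENSDARG00000010478) was counted 45 times in controls and 67 times in morphants, and its log2 ratio (0.46, interval -0.10 to 1.04) was not past the read test. HSP90AA1 (ENSDARG00000024746) had 39 and 265 reads. That ID rose 6.24-fold (interval 4.49 to 9.07), and 99.2% of the genes tested had a lower log2 ratio. EdgeR's exact test called it at a CV of 0.1 and 0.2 and under the blind dispersion (adjusted p = 0.00823), and not at 0.4 (adjusted p = 0.587). The HSP90AA1 fold exceeded the hsp90aa1.1 fold 4.54 times (exact conditional interval 2.66 to 7.80), a ratio that needs no scaling. In RefSeq's annotation of assembly GRCz12tu, hsp90aa1.1 and hsp90aa1.2 are neighbouring genes on chromosome 20. How the authors' counting split reads shared by such copies is not given in the sources used here, so the reads of the pair are uncertain where their sequences coincide.

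**Figure D2:**
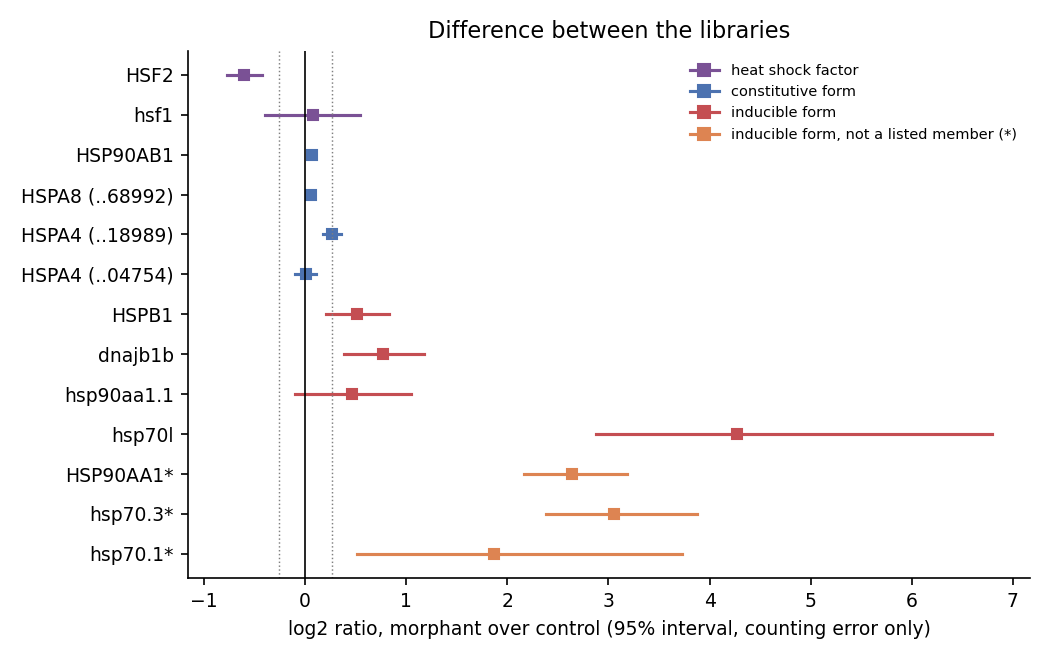
Log2 ratio of morphant over control for each ID with at least 10 reads (squares), with 95% intervals of counting error (bars). Colours mark heat shock factors, constitutive forms, inducible members and the starred HSP90AA1, hsp70.1 and hsp70.3, chosen from outside the member list. Other heat-inducible genes, such as BAG3 (log2 ratio -0.03) and HSPH1 (2.34), are not drawn. Dotted lines mark a fold of 1.2 either way, and the intervals of dnajb1b, hsp70l, HSP90AA1, hsp70.3 and hsp70.1 lie wholly to the right of them.

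Other heat-inducible HSP70 genes moved in the same direction as hsp70l. The gene hsp70.3 (ENSDARG00000021924) went from 18 reads to 165, and its log2 ratio was 3.06 (interval 2.38 to 3.88). For hsp70.1 (ENSDARG00000029688) reads went from 5 to 21, with a log2 ratio of 1.87 (interval 0.52 to 3.73), and both were past the read test. For hspa1b (ENSDARG00000056210) they were 0 and 3, which is within the limit that a count of 0 allows, and no fold is given. RefSeq places hsp70.1, hsp70.2 and hsp70.3 side by side on chromosome 3 and hsp70l on chromosome 8, and near-identical copies in this family can share reads. No ID carried hsp70.2. The summed reads of hsp70l, hsp70.1, hsp70.3 and hspa1b went from 26 to 261, a 9.17-fold rise (interval 6.22 to 14.5). This sum does not depend on how reads were divided among the 4 IDs. It would miss reads that were dropped as shared or given to another copy. EdgeR's exact test called hsp70.3 at a CV of 0.2 (adjusted p = 3.12e-06) and under the blind dispersion (adjusted p = 0.0277), and not at 0.4 (adjusted p = 0.287). It did not call hsp70.1 even at a CV of 0.1 (adjusted p = 0.0824).

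The constitutive forms were among the more abundant transcripts of the liver in both libraries. HSPA8 (ENSDARG00000068992), the constitutive HSP70 also known as HSC70, had 63446 reads in controls and 71229 in morphants, or 3227 and 3600 CPM (counts scaled to the library total). Its fold was 1.04 (interval 1.03 to 1.05). HSP90AB1 (ENSDARG00000029150), the constitutive beta form of HSP90, had 64858 and 73136 reads, or 3299 and 3697 CPM, and a fold of 1.05 (interval 1.04 to 1.06). At this depth the intervals, which cover counting error only, exclude both equal levels in these libraries and a fold of 1.2. EdgeR's exact test at a CV of 0.1 called neither gene (adjusted p = 0.961 for HSPA8 and 0.954 for HSP90AB1). Scaling by total counts instead of median-of-ratios size factors moved the log2 ratios of well-counted genes up by 0.10, which took HSPA8 to 0.16 and HSP90AB1 to 0.16, still under a fold of 1.2. The second HSPA8 ID (ENSDARG00000037403) had 7 and 2 reads, too few for the test.

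HSPA4 is an HSP110-type nucleotide exchange factor for HSP70, and 2 IDs carry its symbol, so hspa4a and its paralog could not be told apart. For ENSDARG00000004754 the reads were 1435 and 1551, and the log2 ratio was 0.0045 (interval -0.10 to 0.11), the sign of which turned under other scalings. For ENSDARG00000018989 they were 1745 and 2256, a log2 ratio of 0.26 (interval 0.17 to 0.35). The second ID lay just below the minimum fold of 1.2 and was past the read test under total counts, with a log2 ratio of 0.36. The intervals of the pair do not overlap, so their ratios differed by more than counting error. HSPH1 (ENSDARG00000019874), the HSP110 gene that is heat-inducible in mammals, had 2 reads in controls and 13 in morphants (log2 ratio 2.34, interval 0.45 to 5.78). It was past the read test, but the control count is within the limit that a count of 0 allows, the gene reached the 10-read minimum through the morphant library alone, and edgeR's exact test did not call it at a CV of 0.1 (adjusted p = 0.105).

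The contrast between forms was also expressed as a share of reads within each library, which needs no scaling between libraries. HSP70 reads here are those of hsp70l, hsp70.1, hsp70.3, hspa1b and both HSPA8 IDs only. HSP90 reads are those of hsp90aa1.1, HSP90AA1 and HSP90AB1 only. Other genes of these families, such as HSPA5 and HSP90B1, were left out. The inducible HSP70 IDs took 0.0410% of HSP70 reads (26 of 63479, exact interval 0.0268% to 0.0600%) in controls and 0.365% (261 of 71492, interval 0.322% to 0.412%) in morphants. For hsp70l alone against HSPA8, the odds were 21.4 times higher in morphants (exact conditional interval 7.03 to 106). Together, hsp90aa1.1 and HSP90AA1 took 0.129% of HSP90 reads in controls (84 of 64942, interval 0.103% to 0.160%) and 0.452% in morphants (332 of 73468, interval 0.405% to 0.503%). Those odds were 3.51 times higher (interval 2.75 to 4.51), and they rested on HSP90AA1, as hsp90aa1.1 alone gave 1.32 (interval 0.891 to 1.97). The reads were not divided by transcript length, so the shares are of reads and not of molecules.

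**Figure D3:**
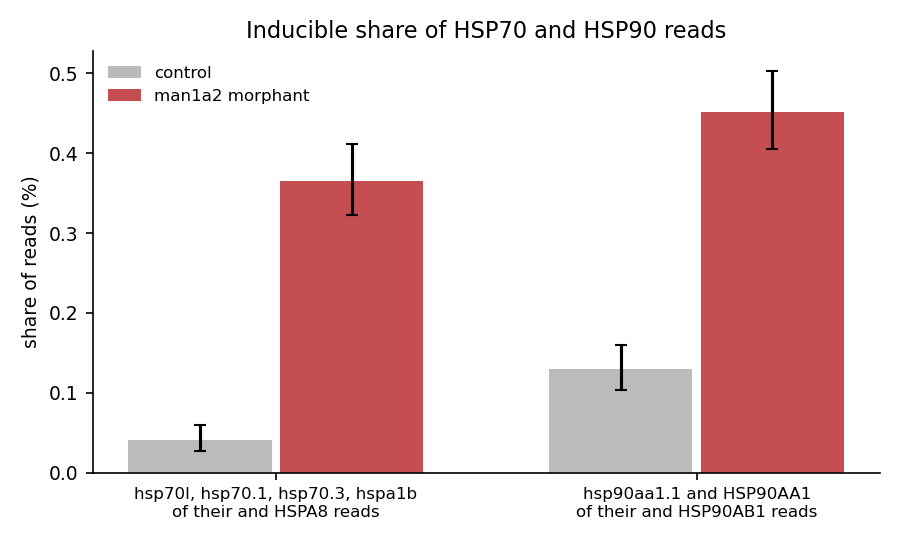
Share of HSP70 reads from hsp70l, hsp70.1, hsp70.3 and hspa1b, and of HSP90 reads from hsp90aa1.1 and HSP90AA1, in percent, for the control (grey) and man1a2 morphant (red) libraries, with exact 95% intervals of counting error as bars. HSP70 reads add only HSPA8 to the IDs named, and HSP90 reads add only HSP90AB1. The share went from 0.0410% to 0.365% for HSP70 and from 0.129% to 0.452% for HSP90, so even in morphants it stayed under 1 in 100 reads.

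The large folds of the inducible forms were thus small in reads. Taken as 1 pool, the inducible HSP70 and HSP90 IDs rose 4.99-fold (interval 4.08 to 6.19) and gained 457 normalized reads, while HSPA8 and HSP90AB1 rose 1.04-fold and gained 5894. The inducible IDs made up 7.20% of the reads gained. That share depended on the scaling and ran from 3.07% under total counts to 12.0% under upper-quartile factors, because the constitutive gain is a small difference between large numbers. HSPA8 and HSP90AB1 together held 0.653% of all control reads and 0.730% of all morphant reads, and the inducible IDs 0.000560% and 0.00300%.

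Neither heat shock factor was past the read test as higher. Reads of hsf1 (ENSDARG00000008818), the main activator of the response, numbered 74 in controls and 84 in morphants, and the log2 ratio was 0.07 (interval -0.39 to 0.55). A change of hsf1 was not detectable at this depth, and its activity is set mainly after translation, which read counts do not measure. HSF2 (ENSDARG00000053097), a related factor that is known in mammals for roles in development and that can form trimers with HSF1, had 664 reads in controls and 471 in morphants. It was the only member of the 10 tested that fell, to 0.659 of the control level (interval 0.584 to 0.742), and 13.0% of the genes tested had a lower log2 ratio. Its adjusted p was 0.0841 in edgeR's exact test at a CV of 0.1. HSF4 and hsf5 had 0 reads in both libraries, which allows up to 0.153 CPM in controls and 0.152 CPM in morphants.

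A carrier of HSP70 and regulators of HSF1 were next compared. HIKESHI (ENSDARG00000104071), the carrier that brings HSP70 into the nucleus during heat stress in human cells, had 173 and 255 reads. It rose, with a log2 ratio of 0.45 (interval 0.17 to 0.74), and edgeR's exact test did not call it at a CV of 0.1 (adjusted p = 0.358). The HSF1-binding protein gene hsbp1b had 1033 and 1297 reads and a log2 ratio of 0.22 (interval 0.10 to 0.34), below a fold of 1.2. Its relative HSBP1 had 11 and 23 reads and an interval that included 0.

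Beyond the members, 76 IDs of the chaperone and cochaperone lists had at least 10 reads, and 26 were past the read test as higher and 3 as lower, against 12.5% and 12.6% of all genes tested. Under total counts, where all genes also leaned to higher calls, they were 34 and 2. Their median log2 ratio was 0.21. EdgeR's exact test called 4 of the 29 at a CV of 0.1 (hsp70.3, SERPINH1, HSPA5 and dnajb2), 2 at 0.2 (hsp70.3 and SERPINH1), 0 at 0.4 and 1 under the blind dispersion (hsp70.3). These lists were chosen with earlier results of these data known, so their counts are given as a description. The 8 ranked highest by the bound of the interval nearest 0 were hsp70.3, SERPINH1 (ENSDARG00000019949), HSPA5, hsp70.1, HSPH1, CCT2 (ENSDARG00000104674), PPID and CCT3. Of these, SERPINH1, hsp70.1 and HSPH1 reached the 10-read minimum through the morphant library alone, so their calls and ranks rest on the library in which they are high.

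**Figure D4:**
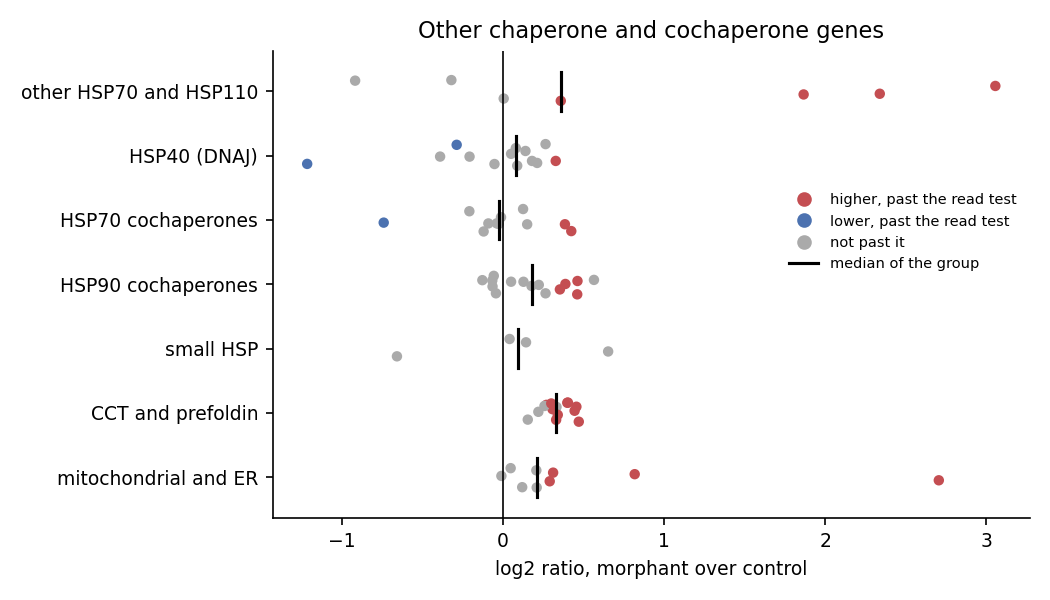
Log2 ratios of morphant over control for the chaperone and cochaperone IDs outside the member list with at least 10 reads, by group, each point 1 ID, red if higher and blue if lower past the read test, grey otherwise, with the group median as a black bar. All 14 CCT and prefoldin IDs lie right of 0 in a narrow band from 0.15 to 0.47, while the HSP70 group spreads from -0.92 to 3.06.

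The chaperonin CCT, a ring that folds actin and tubulin, and prefoldin, which hands them to it, moved in a narrow range. All 14 measured IDs had log2 ratios above 0, from 0.15 to 0.47, as did 8050 of the 15732 genes tested. Of the 14, 10 were past the read test as higher, against 12.5% of all genes tested. The sign held under each of the 4 scalings, with a range of 0.13 to 0.44 under upper-quartile factors and 0.25 to 0.57 under total counts. Under total counts the median of all genes tested was itself 0.11. CCT2 (ENSDARG00000104674) had 1320 and 1970 reads, a log2 ratio of 0.47 (interval 0.37 to 0.57). CCT3 had 2941 and 4177 reads, a log2 ratio of 0.40 (interval 0.33 to 0.47). Many of these ratios lay near the minimum fold, and the number past the test ran from 9 under TMM and upper-quartile factors to 13 under total counts. EdgeR's exact test called none of these IDs at a CV of 0.1, with an adjusted p of 0.1998 for CCT2 and 0.307 for CCT3.

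Of the lists beside the members, 4 of 7 measured HSP70 and HSP110 IDs and 4 of 9 mitochondrial or endoplasmic reticulum IDs rose past the test and 0 fell. Over all genes tested, 12.5% were past it as higher and 12.6% as lower. Among the calls of these lists, hsp70.1 (5 and 21 reads), HSPH1 (2 and 13) and SERPINH1 (ENSDARG00000019949, 6 and 45) reached the read minimum through the morphant library alone. Their calls therefore rest on the library in which they are high, which limits the comparison with all genes. The remaining calls, hsp70.3, HSPA14, HSPA5, HSPD1 and HSPE1, had control reads above that minimum. Cochaperones of HSP90 and HSP70 had smaller ratios. Of 15 HSP90 cochaperone IDs, 4 rose and 0 fell past the test. PPID, a cyclophilin of the HSP90 complex, had 970 and 1438 reads and a log2 ratio of 0.46 (interval 0.34 to 0.58), and FKBP4, the immunophilin FKBP52, had 1272 and 1792 reads and a log2 ratio of 0.39. SUGT1 (353 and 524 reads) and 1 of 2 PTGES3 IDs (971 and 1336 reads) were the others. AHSA1 (ENSDARG00000100317), the activator of the HSP90 ATPase, had 408 and 455 reads and a log2 ratio of 0.05, and STIP1, which links HSP70 to HSP90, had 1435 and 1715 reads and a log2 ratio of 0.15, neither past the test.

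Of 11 HSP70 cochaperone IDs, ST13 (2717 and 3820 reads, log2 ratio 0.38) and HSPBP1 (121 and 175 reads, 0.42) rose and BAG5 fell, from 112 to 72 reads (-0.74, interval -1.19 to -0.31). Such calls, 2 higher and 1 lower, were near the shares of all genes tested, 12.5% higher and 12.6% lower. BAG3, a cochaperone that is strongly heat-inducible in human cells, had 191 and 202 reads, a log2 ratio of -0.03 (interval -0.32 to 0.27). The interval of BAG3 excludes a rise of the size seen for hsp70l or HSP90AA1. The sign of this group's median turned with the scaling, from -0.03 to 0.07 under total counts.

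Among 13 other HSP40 IDs, dnaja1 rose (270 and 365 reads, log2 ratio 0.33), while dnajb2 fell from 61 to 28 reads (-1.22, interval -1.93 to -0.56) and dnajb6a from 348 to 307 (-0.29, interval -0.51 to -0.06). These calls, 1 higher and 2 lower, were near the shares of all genes tested, 12.5% higher and 12.6% lower. Small heat shock proteins other than HSPB1 were mostly at or near 0. Of 10 IDs, 4 had at least 10 reads and 0 were past the test, and HSPB8, the most abundant, had 1434 and 1589 reads and a log2 ratio of 0.04 (interval -0.06 to 0.14). Both CRYAB IDs, the alpha-B crystallins, had 0 reads in both libraries.

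Chaperones of other compartments were read beside the cytosolic ones. HSPA5, the endoplasmic reticulum HSP70 known as BiP, rose from 19566 to 37138 reads, a log2 ratio of 0.82 (interval 0.79 to 0.84). The HSP90 of the same compartment, HSP90B1, had 30288 and 33715 reads and a log2 ratio of 0.05 (interval 0.02 to 0.07). Mitochondrial HSPD1 (HSP60) had 10418 and 13921 reads and a log2 ratio of 0.31, and its partner HSPE1 5713 and 7523 reads and 0.29. SERPINH1, the collagen chaperone HSP47 and a heat shock target in mammals, had 2 IDs that differed, with 6 and 45 reads for ENSDARG00000019949 (log2 ratio 2.70, interval 1.57 to 4.32) and 624 and 730 reads for ENSDARG00000075954 (0.12, interval -0.04 to 0.28). HSPA8, the constitutive HSP70 of the cytosol, thus differed by 1.04-fold where HSPA5 of the endoplasmic reticulum differed by 1.76-fold. HYOU1, also of the endoplasmic reticulum, had 7097 and 7591 reads and a log2 ratio of -0.01 (interval -0.06 to 0.04). The rise of HSPA5 was therefore not shared by HYOU1 or, in size, by HSP90B1. EdgeR's exact test called HSPA5 at a CV of 0.1 (adjusted p = 0.00274). It did not at 0.2 (adjusted p = 0.687) or under the blind dispersion (adjusted p = 0.512).

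Markers of other tissues moved between the libraries as well, and in bulk RNA fewer cells of a type and less RNA per cell cannot be told apart. As background, 12.5% of all genes tested were past the read test as higher and 12.6% as lower. Exocrine pancreas markers (17 of 22 symbols matched) went from 33.7 to 489 CPM in sum, with 15 of 17 measured IDs higher past the test, led in reads by prss59.2 (88 and 2027) and ctrb.1 (99 and 2001). Epidermal markers went from 102 to 193 CPM, with 8 of 16 higher, among them krt4 (155 and 814 reads). Some called IDs of both lists reached the 10-read minimum through the morphant library alone, such as CPA1 (ENSDARG00000030915, 0 and 30 reads) and icn2 (0 and 33 reads). DSP, the epidermal marker with most reads, had 495 and 625 and was not past the test. The part of pancreatic or epidermal cells in the reads of the inducible chaperones was not tested.

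Skeletal muscle, where hsp90aa1.1 is expressed in zebrafish, left few reads. Its markers (23 of 29 symbols matched) summed to 11.9 CPM in controls and 18.8 in morphants. Past the test as higher were 2 of 6 measured IDs, PYGM and myhz1.3, against 12.5% of all genes tested. With 2 and 13 reads, myhz1.3 reached the 10-read minimum through the morphant library alone. Of 27 muscle IDs, 12 were at 0 in controls and 5 in morphants. PYGM (ENSDARG00000013317) had 55 and 126 reads and myhz1.1 50 and 82. Its neighbour in the list, myhz1.2, went the other way, with 64 and 52 reads (log2 ratio -0.40, interval -0.96 to 0.14). The muscle actin gene actc1b had 0 and 5, ckmb and tpma 0 in both, and the muscle HSP90 cochaperone UNC45B 0 and 2. CASQ1 (ENSDARG00000038716) had 6 and 1 and RYR1 (ENSDARG00000011422) 8 and 1. Lens markers summed to 2.39 and 1.72 CPM, led by CRYBB1 (37 and 24 reads) and CRYBA1 (5 and 8). Leukocyte markers went from 19.6 to 6.72 CPM, with 6 of 11 measured IDs lower past the test, against 12.6% of all genes tested. Of the lower IDs, lyz (55 and 2 reads), MMP9 (46 and 8), mmp13a (68 and 6) and CSF3R (11 and 2) reached the 10-read minimum through the control library alone. Their calls therefore rest on the library in which they are high. CORO1A had 57 and 37 reads and was not past the test. Erythroid markers (9 of 14 symbols matched) went from 106 to 76.4 CPM, with hbae3 at 1277 and 1119 reads and hbae1.1 at 389 and 177. Hepatocyte markers, led by apoa1b and tfa, summed to 218105 and 207661 CPM, so the defining transcripts of the labelled tissue were abundant in both libraries. Of 18 measured hepatocyte IDs, 7 were lower past the test, among them tfa, and 1 was higher. Over all genes tested the shares were 12.6% lower and 12.5% higher.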

How the data were processed

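RNA from pooled larval livers was sequenced in 1 control and 1 man1a2 morphant library (poly-A selected, strand-specific). The authors deposited raw counts of reads per Ensembl gene, not normalized. The submitters' processing notes list FastQC, DESeq2 and build GRCz10, and the study's methods name DESeq. The aligner, the counting program and the handling of shared reads are not given in the sources used here. Symbols came from a name table covering 81.7% of the IDs, and RefSeq (GRCz12tu) served for synonyms and neighbouring genes only. No sequences were used.

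Counts were scaled with DESeq2 1.42.0 size factors (R 4.3.3). Log2 ratios carry a pseudocount of 0.5 and intervals none, so a ratio of few reads is pulled towards 0. The exact binomial read test covered genes with at least 10 reads, because without replicates a quasi-likelihood or DESeq2 test cannot be fitted. It was tested on simulated data, and the check it had to pass was set with no variation between pools. That check does not show how often the test errs where pools vary. Shares have Clopper-Pearson intervals (scipy 1.17.1), at 95%. PCR copies are not independent molecules. EdgeR 4.0.16 exact tests with a set coefficient of variation and other scalings were alternatives.

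Members and lists were chosen with earlier results of these data known. Inducible members were hsp70l, hsp90aa1.1, hsp90aa1.2, dnajb1b and hspb1, and constitutive ones hspa8, hspa4a and hsp90ab1. All members were named, as were the 8 other chaperone genes past the test with the interval bound farthest from 0 in each direction (3 fell), SERPINH1, HSPA5, HSP90B1, HSPD1 and BAG3, and the 2 markers per cell type with most reads. Other named genes were chosen after their values were seen.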

Additional observations from a re-analysis of the deposited data

How the results depend on the processing

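No paired analysis was possible because there was only 1 library of each kind. Of the members, 4 were past the read test, and this number stayed within 1.5 times under the other scalings, both read filters, thinning and with HSP90AA1 counted as hsp90aa1.2. The filter of at least 100 reads gave 3, because hsp70l, with fewer reads than that, was no longer tested. It was 7 with no minimum fold, 1 with a minimum fold of 2, 1 (hsp70l) in edgeR's exact test at a CV of 0.1, 0.2 or 0.4, and 0 under the blind dispersion. Over all genes the number was 3956, and it fell to 988 with a minimum fold of 2, to 1002, 220 and 43 at those CVs, and to 117 under the blind dispersion. How much pools of like larvae vary was not measured. HSPA4 (ENSDARG00000004754) had a log2 ratio of 0.0045 that turned to -0.0109 under TMM factors, -0.0229 under upper-quartile factors and -0.000257 after thinning. The odds of an hsp90aa1 read were 3.51 times higher in morphants, 6.03 times without hsp90aa1.1 and 1.32 times without HSP90AA1. The difference between the inducible and constitutive medians kept its sign under all alternatives run, from 0.42 with HSPA4 counted as inducible to 0.73 for summed reads. The alternatives with HSP90AA1 as hsp90aa1.2 and the edgeR tests of single members were chosen after seeing the data.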
